A study of Mus musculus with 3 samples.

Results

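The subject is 8 genes of the complement system, C1qa, C1qb, C1qc, C3, Cfb, Cfp, C3ar1 and C5ar1, taken by name from the 22350 protein-coding genes of GENCODE M1 on chromosomes 1 to 19 and X of the mm9 mouse genome. All 8 were found, each once. Phosphorylated Ser5 Pol_II, the form of the polymerase that carries a phosphate on serine 5 of the repeats in its C-terminal tail, was mapped by ChIP-Seq in primary macrophages that had been grown from the bone marrow of female Fvb mice (Fvb/Hsd in the methods) in L929-conditioned medium and taken on day 7 of differentiation. One Ser5 library came from untreated cells and another from cells stimulated with LPS (lipopolysaccharide of the bacterial outer membrane) at 10 ng/ml for 2 h, and a library of input DNA, chromatin sequenced without antibody, came from untreated cells. The sample labels give LPS alone, while a plotted Ser5 track of the study is marked LPS with interferon gamma. Fvb mice are known to lack functional C5, the protein whose fragment is the ligand of C5ar1. There was 1 library per condition, so no difference between conditions was tested, and all intervals are 95% intervals for counting error only, which does not include the spread between cultures. In such bulk chromatin fewer cells with Ser5 on a gene and less Ser5 per cell cannot be told apart.

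Complement is a set of proteins that marks foreign and dying material for uptake and killing. In the classical pathway C1q, built from the products of C1qa, C1qb and C1qc, recognizes antibody or other ligands. In the alternative pathway factor B (Cfb) supplies the protease of the convertase and properdin (Cfp) stabilizes it, and both pathways meet at C3, the component whose cleavage tags surfaces. The fragments C3a and C5a are bound by the receptors C3ar1 and C5ar1, which direct leukocytes to the site. Most plasma complement is made in the liver, while macrophages are a known local source and the main source of C1q.

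The untreated Ser5 library held 7616771 tags on chromosomes 1 to 19 and X, the LPS library 6249819 and input 7533308. In TPM, here tags per 1000000 tags of the library on those chromosomes, a single tag equalled 0.131, 0.160 and 0.133. Tags, which are sequenced DNA ends and not transcripts, were counted over the gene body, the whole annotated gene, and over the TSS window, 1 kb to each side of its start. Division by the length of the window in kb gave the density, in TPM per kb. In the library labelled LPS, Ccl5, Il6 and Tnf, cytokine genes that LPS is known to induce, held 7801, 538 and 12948 gene body tags against 24, 20 and 1634 in untreated cells. Of 8 macrophage markers 7 reached at least 2 times the input density in each Ser5 library. The exceptions were Mertk in untreated cells, at 1.36 times input, and Itgam after LPS, at 0.613 times (0.510 to 0.735). Of 21 markers of granulocytes, B and T cells, dendritic, stromal, erythroid and liver cells only Lck reached 2 times input. It had 312 and 281 gene body tags but 1 and 3 tags in its TSS window. The summed density of each of those 7 lists was between 0.0549 and 2.97 in untreated cells and between 0.0860 and 2.61 after LPS, against 227 and 232 for the macrophage list. Within the macrophage list Cd14 went from 48.9 to 155.6 TPM per kb and Emr1 was higher too, Csf1r, Cd68, Itgam and Lyz2 fell below 0.5 of their untreated density, and the median ratio was 0.618.

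The promoters of 3 members are shown because their TSS windows differed at least 2 times between the Ser5 libraries in opposite directions: C1qc and Cfp were lower and C3 was higher after LPS. Of the 8 members 6 have a promoter in the RefSeq table of build GRCm38.p6, which gives 250 bases before and 50 after the start, C1qa and Cfb being the others. Each printed promoter was placed by its only exact match on its mm9 chromosome, and all 3 are on the minus strand. Capitals mark matches on either strand to the letters searched, which were GAGGAAGT for PU.1, TTGCNNAA for C/EBP, TGANTCA for AP-1 and TATAAA for the TATA box, where N is any base. The longer NF-kB and ISRE motifs were searched as well, and no matches overlap in these 3.
C1qc, chr4:136448780-136449079: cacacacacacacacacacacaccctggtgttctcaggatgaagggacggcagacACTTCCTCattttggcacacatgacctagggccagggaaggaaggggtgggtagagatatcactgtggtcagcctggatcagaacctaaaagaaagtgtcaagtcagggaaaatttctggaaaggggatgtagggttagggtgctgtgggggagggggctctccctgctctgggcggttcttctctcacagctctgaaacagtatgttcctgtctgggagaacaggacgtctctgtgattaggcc
C3, chr17:57367510-57367809: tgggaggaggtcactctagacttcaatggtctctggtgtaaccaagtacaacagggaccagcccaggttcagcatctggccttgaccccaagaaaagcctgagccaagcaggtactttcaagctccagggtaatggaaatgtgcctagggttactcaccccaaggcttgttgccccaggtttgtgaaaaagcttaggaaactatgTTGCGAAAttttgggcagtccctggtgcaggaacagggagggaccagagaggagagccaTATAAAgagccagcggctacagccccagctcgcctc
Cfp, chrX:20508632-20508931: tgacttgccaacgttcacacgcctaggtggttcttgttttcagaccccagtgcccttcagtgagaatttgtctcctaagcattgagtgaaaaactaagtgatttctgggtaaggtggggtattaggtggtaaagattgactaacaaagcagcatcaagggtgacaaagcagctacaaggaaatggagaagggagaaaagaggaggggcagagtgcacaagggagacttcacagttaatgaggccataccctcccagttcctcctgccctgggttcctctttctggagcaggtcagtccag
The RefSeq start of C1qc lies 151 bp inside the GENCODE gene, and those of C3 and Cfp are at the GENCODE start. C1qc held 1 PU.1 match, at positions -195 to -188 from the start (counted as 0), as did 3.11% of the 32544 different promoters in the table. In C3 a C/EBP match stood at -45 to -38 and a TATA match at 14 to 19, with shares over all promoters of 10.8% and 13.6%. Cfp held none of the 6 sequences, which says only that these letters are not in the window. The shares of all promoters with NF-kB, ISRE and AP-1 letters were 1.17%, 3.45% and 7.79%. Over these 300 bases C1qc had 28 untreated, 3 LPS and 3 input tags, Cfp had 42, 7 and 1, and C3 had 28, 62 and 3.

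After LPS the density of 1 member, C3, was at least 2 times higher over the gene body, where 5.82% of the 17386 coding genes with at least 10 Ser5 tags passed the same rule. C1qa, C1qc and Cfp, 3 of the 8, were at least 2 times lower, against 11.2% of coding genes. In the TSS window 2 members, C3 and Cfb, were higher and the same 3 were lower, where the shares over 12536 coding genes were 5.61% and 14.1%. All 8 members had enough tags in both windows. As given above, 4 of 8 macrophage markers were also lower over the body, and their part in the lower members was not tested. The median LPS to untreated ratio of the members was 0.695 over the body and 0.734 in the TSS window, beside 0.873 and 0.831 for coding genes.

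**Figure D1:**
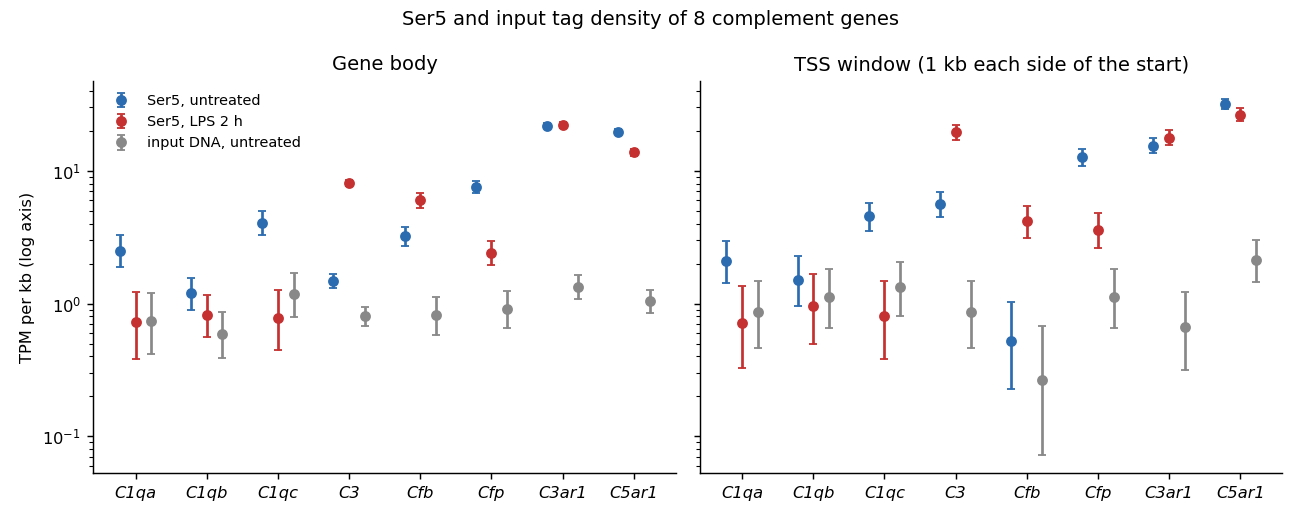
Density of Ser5 and input tags (TPM per kb, log axis) of the 8 genes over the gene body and the TSS window. Points are single libraries and bars are 95% counting intervals. At this scaling to all tags the intervals of C1qa, C1qb and C1qc after LPS overlap those of input. The points of C3ar1 and C5ar1 are between 12.5 and 26.8 times input in both Ser5 libraries.

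Gene body levels in untreated cells ran in the order C3ar1, C5ar1, Cfp, C1qc, Cfb, C1qa, C3 and C1qb, from 21.9 to 1.19 TPM per kb. The intervals of C1qc and Cfb, of Cfb and C1qa, and of C3 and C1qb overlapped, and those of the other neighbours in the order did not. C3ar1 ranked 228 and C5ar1 265 among the 22350 coding genes. After LPS the order was C3ar1, C5ar1, C3, Cfb, Cfp, C1qb, C1qc and C1qa, from 22.1 to 0.720, and only the 3 C1q genes could not be told apart from each other by their intervals. C3 moved from rank 6202 to rank 912 and Cfb from 2972 to 1289, while Cfp went from 1038 to 3488 and C1qc from 2283 to 8276.

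Against input, 7 members reached 2 times the input density over the body in untreated cells, all but C3 at 1.85 times, beside 37.6% of coding genes. After LPS 5 did, the 3 C1q genes being the others, beside 32.8% of coding genes. Scaling to the tags outside peaks makes the LPS to input ratio of every gene 2.05 times larger, and 7 members then passed, all but C1qc. C1qa was at 2.00 times input (0.887 to 4.44). The share of coding genes at that scaling was not counted, so nothing is read from this count. In the TSS window, scaled to all tags, the counts were 6 and 5, where the shares of coding genes were 71.9% and 70.4%. Deposited peaks lay in the body of 7 members in untreated cells, all but C1qb, and of 5 after LPS, the C1q genes having none, beside 53.3% and 50.6% of coding genes. TSS windows held a peak in 6 members, all but C1qb and Cfb, in untreated cells and in 5 after LPS, beside 48% and 45.9%.

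**Figure D2:**
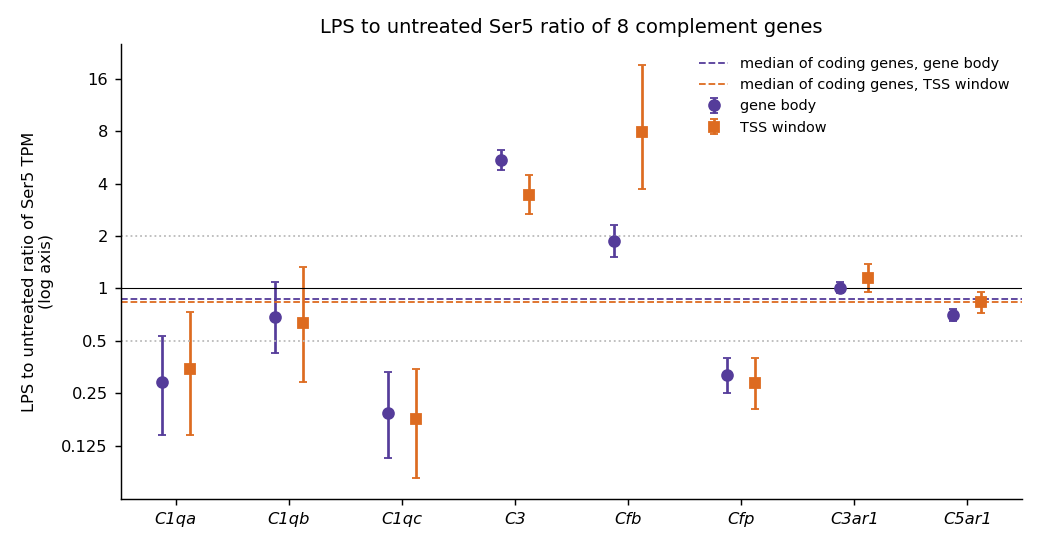
LPS to untreated ratio of Ser5 TPM (log axis) over the gene body (circles) and TSS window (squares) of the 8 genes, with 95% counting intervals. Dotted lines mark 0.5 and 2, dashed lines the median of coding genes. At this scaling to all tags the intervals of C1qa, C1qc, Cfp and C5ar1 lie below 1 in both windows. Those of C3 and Cfb lie above 1, and those of C1qb and C3ar1 include it.

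The genes of the C1q subunits stand in 1 cluster on chromosome 4, all on the minus strand, in the order C1qa (chr4:136451832-136454718), C1qc (chr4:136445719-136448980) and C1qb (chr4:136436044-136442102). The gaps between them are 2851 and 3616 bp, and each gene has 3 exons in its longest coding transcript. From the start of C1qa to the end of C1qb the span of 18.7 kb held 319 untreated, 84 LPS and 105 input tags. The LPS to untreated ratio of the span was 0.321 (0.249 to 0.409), and its ratio to input went from 3.0 (2.40 to 3.78) to 0.964 (0.715 to 1.30). Ser5 over the cluster was thus above input before stimulation, and after it the interval included 1 only when libraries were scaled to all tags. Scaled to the tags outside peaks, ratios to input become 1.90 times larger for the untreated and 2.05 times larger for the LPS library, and the span after LPS was at 1.97 times input (1.46 to 2.65). So scaled, C1qb after LPS was at 2.83 times input (1.64 to 4.93), and the intervals of C1qa (0.887 to 4.44) and C1qc (0.690 to 2.59) included 1.

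C1qc, the gene of the C chain, had 101 untreated, 16 LPS and 29 input tags over its body, a ratio of LPS to untreated of 0.193 (0.106 to 0.329). Of the tested coding genes 0.851% had a lower ratio. Its TSS window held 69, 10 and 20 tags, a ratio of 0.177 (0.0811 to 0.345). The densest 250-bp bin, at 0 to 250 bp from the start, held 32 tags in untreated cells and 4 after LPS. An untreated peak with a score of 223, minus 10 times the log10 of the p-value of the peak caller, covered the start (chr4:136448628-136449258), 35.2% of it in exons, 20.8% in introns and 44.1% before the gene.

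C1qa, which codes for the A chain, held 55 untreated, 13 LPS and 16 input tags over its body, and the ratio was 0.288 (0.144 to 0.534). Its TSS window had 32, 9 and 13 tags, a ratio of 0.343 (0.144 to 0.735). Both windows were lower after LPS by more than their counting error. Within 500 bp of the start the counts were 21, 8 and 6, and the interval of the ratio, 0.464 (0.178 to 1.09), included 1. A small peak with a score of 86.6 covered the start in untreated cells only (chr4:136454578-136454795), with 13, 2 and 0 tags.

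C1qb codes for the B chain. Its body had 55 untreated, 31 LPS and 27 input tags, a ratio of 0.687 (0.427 to 1.09), and its TSS window 23, 12 and 17 tags, a ratio of 0.636 (0.288 to 1.33). Both intervals include 1, so that a difference between the Ser5 libraries was not detectable at this depth. They overlap those of C1qa, while over the body the interval lies above that of C1qc (0.106 to 0.329). The untreated density of C1qb was 2.01 times input (1.25 to 3.32), the lowest of the 3 subunits. Of the 30-base sequences in its body, the length of the LPS tags, 7.96% occur more than once in the genome, against 0 in C1qa and C1qc. The untreated and input tags were longer, 45 and 36 bases.

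Between the genes the counts were lower as well. The gap between C1qa and C1qc held 60, 16 and 24 tags, a ratio of 0.325 (0.175 to 0.572), and that between C1qc and C1qb 48, 8 and 9 tags, a ratio of 0.203 (0.0830 to 0.433). Each gap contained a peak called in untreated cells only, chr4:136450675-136451502 with 32, 7 and 5 tags and chr4:136444659-136444977 with 14, 1 and 0 tags. A further untreated peak lay 1029 bp past the end of C1qb (chr4:136434655-136435015), with 15, 3 and 1 tags. In the 5 kb before C1qa the counts were 14, 7 and 20, at or below input in both Ser5 libraries.

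**Figure D3:**
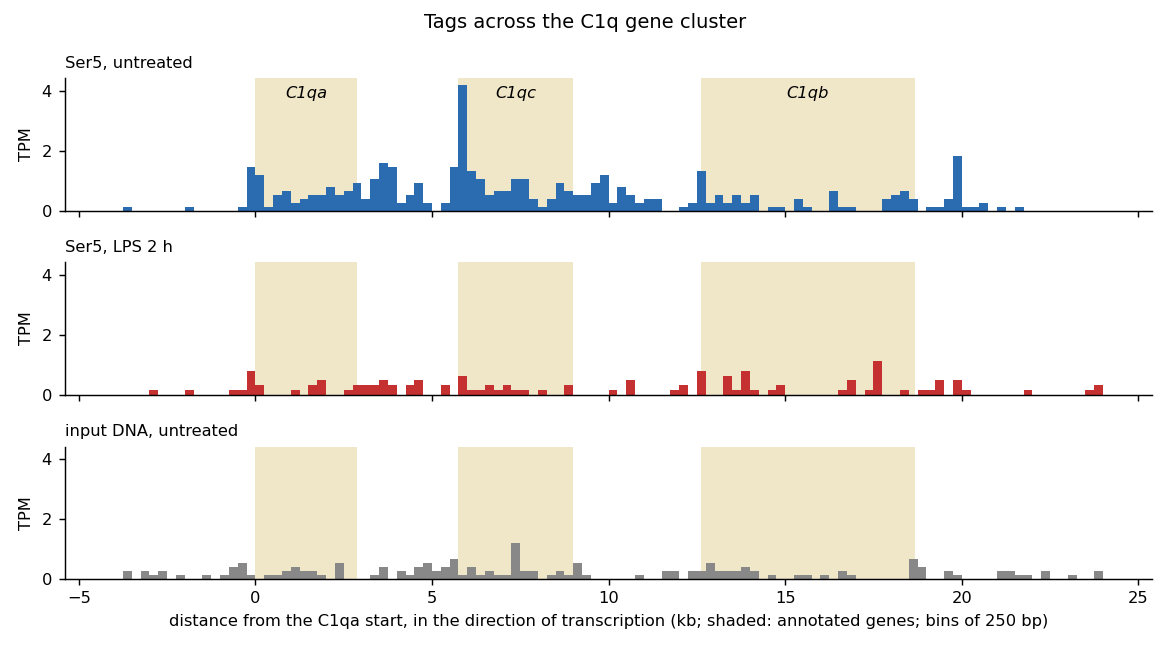
TPM in bins of 250 bp across the C1q cluster, by distance from the start of C1qa in the direction of transcription (kb), in the 3 libraries on the same vertical scale. Shading marks the annotated genes. The highest bin in untreated cells is at the start of C1qc, and the signal of untreated cells runs on through the gaps. At this scaling to all tags the LPS library resembles input in height.

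C3 (chr17:57343397-57367559, 41 exons) codes for the central component. Its body held 273 untreated, 1227 LPS and 146 input tags, a ratio of LPS to untreated of 5.48 (4.80 to 6.27), the highest of the members over the body. Of the tested coding genes 99.2% had a lower ratio. The TSS window had 86, 243 and 13 tags, a ratio of 3.44 (2.68 to 4.46). In untreated cells the start was thus already above input, at 6.54 times (3.63 to 12.8), while the body was 1.85 times input (1.51 to 2.28). After LPS these values were 22.5 (12.9 to 42.9) and 10.1 (8.53 to 12.1).

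Along C3 the ratio was 5.11, 4.90 and 6.95 in the first, middle and last part of the gene when cut into 3 equal parts, and 4.82 (3.06 to 7.90) over the 5 kb past its end. From 1 to 5 kb before the start it was 0.999 (0.645 to 1.54), with 50, 41 and 30 tags. Untreated cells had 2 peaks in the gene, of which that at the start (chr17:57367348-57367815) had a score of 544, and together they covered 1.87% of it. After LPS 26 peaks covered 83.5% of the gene, the longest with 2724 bp running over the start (chr17:57365241-57367964). A pair of peaks was called upstream of C3 in untreated cells. Both lie between C3 and Gpr108, a gene on the same strand that ends 6781 bp before C3. Tags that run on past the end of Gpr108 cannot be told apart from others there. Counts in the first peak (chr17:57372241-57372952, 4682 bp before the start of C3), which was also called after LPS, were 36, 20 and 2. In the second (chr17:57373020-57373504), called in untreated cells only, they were 25, 7 and 4. After LPS only, 6 peaks were called past the end of C3, from 935 to 8795 bp away, the farthest within 1 kb of the start of Tnfsf14.

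Cfb (chr17:34993319-34999463, 18 exons) codes for factor B, the protease of the alternative pathway. Its start and its body differed. The TSS window held 8 untreated, 52 LPS and 4 input tags, a ratio of 7.92 (3.74 to 19.3), and within 500 bp of the start the counts were 3, 39 and 3, a ratio of 15.8 (5.04 to 80.1). The body held 150, 230 and 38 tags, a ratio of 1.87 (1.51 to 2.31), just under the rule of size. Scaled to the tags outside peaks or by the median coding gene, the body of Cfb also passed 2 times. In the 3 equal parts of the gene the ratio was 4.54 (2.66 to 8.11), 1.17 (0.840 to 1.63) and 1.97 (1.39 to 2.81).

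The densest bin of Cfb lay 3500 to 3750 bp inside the gene in untreated cells, with 16 tags, and 250 to 500 bp from the start after LPS, with 19. In untreated cells the 3 peaks of Cfb all lay between 2687 and 5220 bp from the start, and none was in the TSS window. Coding transcripts of Cfb are annotated with starts up to 4376 bp inside the gene. After LPS 6 peaks lay in the gene, 1 of them at 140 to 526 bp from the start (chr17:34998937-34999323, with 2, 29 and 1 tags, 84.5% of it in exons). A further LPS peak lay just before the gene (chr17:34999649-34999915, with 1, 8 and 1 tags), where the annotation has the end of C2. Gm20547, on the same strand, covers 6107 of the 6145 bp of Cfb and its whole TSS window, so that the tags of these genes cannot be told apart along Cfb. C2, a component of the classical pathway, ends 85 bp before it and Rdbp ends 1 bp past its end, where the same holds near the borders. Over its own TSS window, Gm20547 had 3 untreated, 3 LPS and 11 input tags, and C2 over its own had a ratio of 0.686 (0.547 to 0.858).

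Cfp (chrX:20502580-20508681, 9 exons), the gene of properdin, was the one alternative pathway member lower after LPS. Its body held 353 untreated, 92 LPS and 42 input tags, a ratio of 0.318 (0.250 to 0.401), and its TSS window 192, 45 and 17 tags, a ratio of 0.286 (0.202 to 0.397). Of the tested coding genes 3.09% had a lower ratio over the body. The ratios in its 3 equal parts were 0.327, 0.197 and 0.396, and over the 5 kb past its end 0.331 (0.232 to 0.464). After LPS the body of Cfp was at 2.64 times input (1.81 to 3.90), and at 5.40 times (3.71 to 7.98) when scaled to the tags outside peaks. Peaks covered 74.0% of the gene in untreated cells and 12.0% after LPS, in 8 and 3 peaks. The peak at the start had a score of 876 in untreated cells and of 92.2 after LPS. A peak 365 bp before the start (chrX:20509046-20509542) was called in untreated cells only, with 35, 12 and 5 tags. It lies between Cfp and Elk1, a gene on the same strand that ends 1839 bp before Cfp. Tags that run on past the end of Elk1 cannot be told apart from others there.

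**Figure D4:**
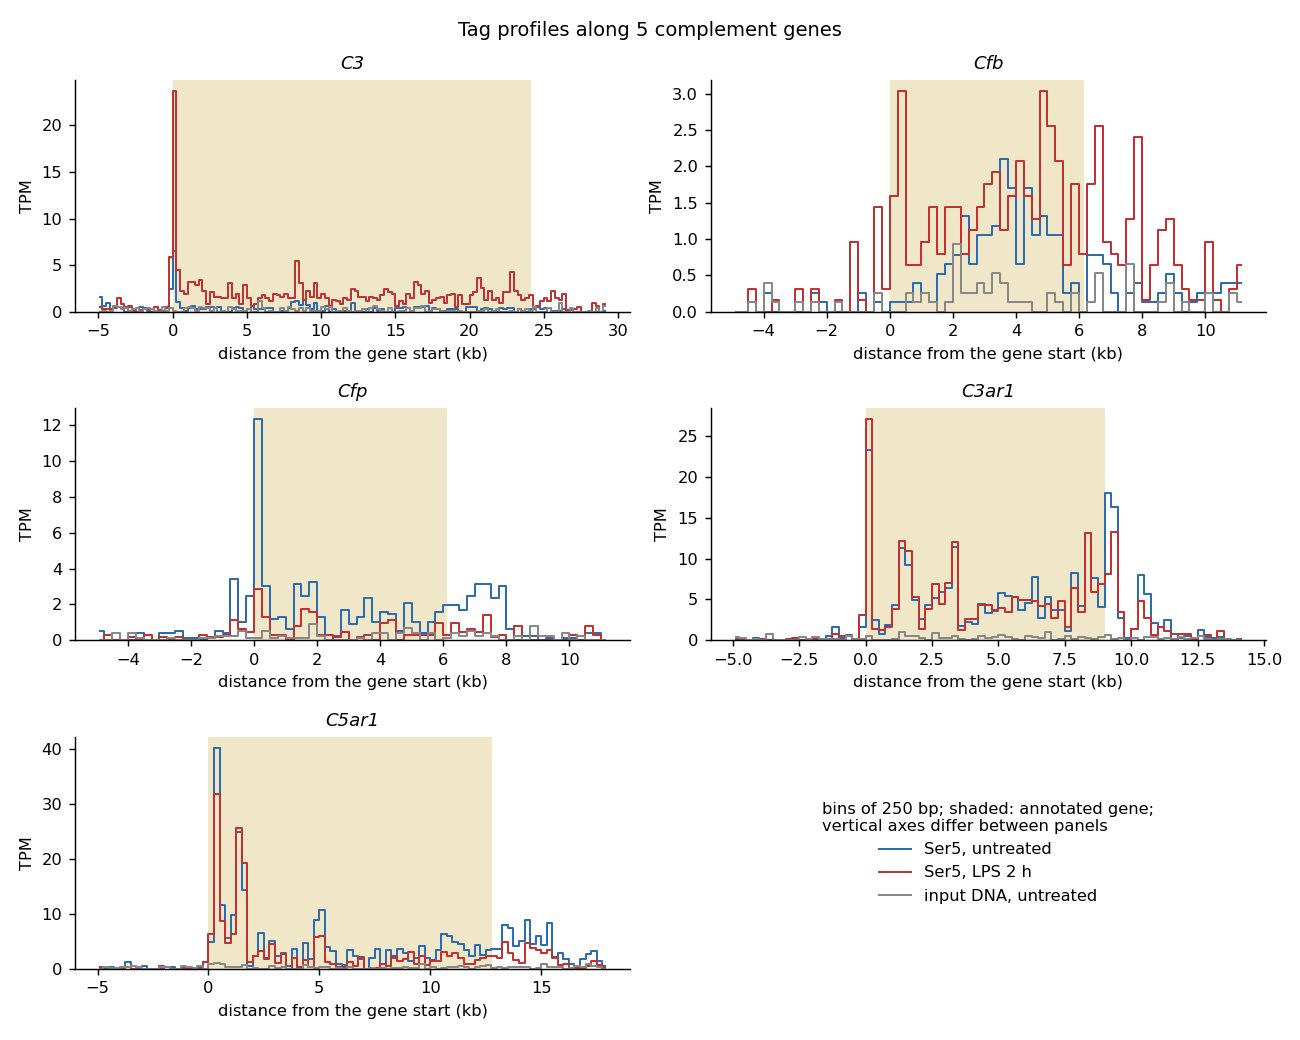
TPM in bins of 250 bp by distance from the gene start (kb) for C3, Cfb, Cfp, C3ar1 and C5ar1 in the 3 libraries, with a vertical axis of its own in each panel. C3 is higher after LPS along the gene, Cfp is lower, Cfb gains a bin near its start, and C3ar1 nearly coincides in both Ser5 libraries up to its end.

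C3ar1 (chr6:122797156-122806179, 2 exons), the receptor of C3a, had the highest body density of the members in both Ser5 libraries. Its body held 1505 untreated, 1246 LPS and 91 input tags. The ratio, scaled to all tags, was 1.01 (0.935 to 1.09), within its counting error of no difference at that scaling. This ratio was above that of 64.2% of coding genes, whose median was 0.873. The TSS window held 235, 222 and 10 tags, a ratio of 1.15 (0.954 to 1.39). Scaled by the median coding gene, the ratio was 1.15 over the body, above the interval given for it, and 1.32 in the TSS window. In the 3 equal parts the ratio was 1.05, 1.02 and 0.948. Past the 3′ end it was lower, at 0.664 (0.568 to 0.775) over 5 kb with 470, 256 and 32 tags, a window that runs into Foxj2, which ends 1771 bp past C3ar1. Peaks covered 91.9% of the gene in untreated cells and 93.9% after LPS.

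Upstream of C3ar1 the peaks are given as they were called, and since a peak called in 1 library was chosen for being high there, nothing is read from its ratio. A site called in both libraries had 47 untreated, 50 LPS and 8 input tags over the untreated peak (chr6:122819852-122820416), a ratio of 1.30 (0.853 to 1.97), and 60, 80 and 18 over the wider LPS peak (chr6:122819846-122820989), a ratio of 1.63 (1.15 to 2.31). Peaks called after LPS only held 22, 39 and 6 tags (chr6:122812858-122813477), 13, 20 and 5 tags (chr6:122813506-122814084) and 4, 15 and 8 tags (chr6:122822799-122823124). In untreated cells only, 3 peaks were called, the nearest 1018 bp before the start (chr6:122807197-122807549) with 15, 5 and 2 tags.

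C5ar1 (chr7:16832092-16844889, 2 exons), the receptor of C5a, held 1916 untreated, 1104 LPS and 101 input tags over its body, a ratio of 0.702 (0.652 to 0.757). Its TSS window had 485, 331 and 32 tags, a ratio of 0.832 (0.721 to 0.958) beside the median of 0.831 for coding genes. The ratio differed along the gene. The first of the 3 equal parts held 1048 and 757 tags, a ratio of 0.880 (0.801 to 0.968). The middle part held 424 and 151, a ratio of 0.434 (0.358 to 0.524), and the last part 444 and 196, a ratio of 0.538 (0.452 to 0.638). Over the 5 kb past the end the ratio was 0.476 (0.408 to 0.553). Peaks covered 85.7% of the gene in untreated cells and 66.6% after LPS.

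Over 8777 coding genes with at least 50 Ser5 tags in both the first and the last part, the ratio of the last part divided by that of the first had a median of 0.962 and quartiles of 0.752 and 1.23. C5ar1 had 0.611, with 11.6% of coding genes below it, and Cfb 0.435, with 3.04% below. C3ar1 (0.901) lay between the quartiles and so did Cfp (1.21), while C3 (1.36) lay above them. The 5 kb past C5ar1 include the start of Gpr77, the gene of the other C5a receptor, which begins 2588 bp past its end. Of the 30-base sequences in C5ar1 17.6% occur more than once in the genome, the largest share of the members. LPS tags had 30 bases and untreated tags 45, and input held 43, 20 and 38 tags in the 3 parts of C5ar1. The part of tag length in the lower ratios of the middle and last parts was not tested.

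**Figure D5:**
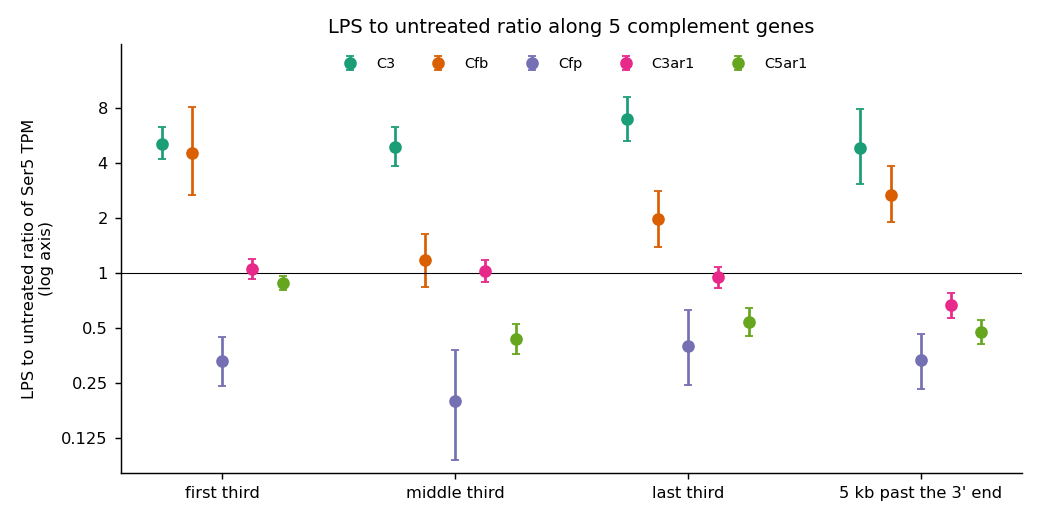
LPS to untreated ratio of Ser5 TPM (log axis) in 3 equal parts of C3, Cfb, Cfp, C3ar1 and C5ar1 and over the 5 kb past their end, with 95% counting intervals. C3 stays near 5 to 7 throughout, C5ar1 drops from 0.880 to 0.434 after its first part, and C3ar1 stays near 1 up to its end.

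The members differed in how far the tags gathered at the start. Density in the TSS window over that of the gene beyond 1 kb was between 0.143 in Cfb and 4.63 in C3 in untreated cells and between 0.693 and 2.71, in the same genes, after LPS. The median of coding genes with at least 10 tags in each window was 10.3 (10710 genes) and 9.89 (10183 genes). Members were not held to this minimum. Cfb had 8 untreated and 4 input tags in its TSS window. After LPS C1qa had 9 tags in each window and C1qc had 8 beyond 1 kb. Leaving out Cfb, the lowest untreated value was 0.728, in C3ar1, with 2.59% of coding genes below it. In untreated cells between 0.271% and 22.5% of coding genes had a lower value than the members. In input, where the coding median was 1.74, the members ranged from 0.286 in Cfb to 2.69 in C1qb, and for 5 of them, C1qa, C1qc, C3, C3ar1 and Cfb, fewer than 10% of coding genes had a lower value without antibody as well. In C5ar1 the highest bin lay 250 to 500 bp from the GENCODE start in both libraries, with 306 and 198 tags, and a second coding transcript starts 202 bp inside the gene.

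Of 46 further complement genes 45 were found in the annotation, 42 had at least 10 Ser5 tags, and 4 were at least 2 times higher and 5 lower after LPS, with a median ratio of 0.911 beside 0.873 for coding genes. Over all coding genes 5.82% were higher and 11.2% lower, so nothing particular is read from these counts. The 5 lower genes are among the 9 listed as receptors or binding proteins. The integrin subunits Itgam and Itgb2, which form complement receptor 3, had ratios of 0.229 (968 and 182 tags) and 0.317 (1263 and 328 tags). Cd93, once described as a C1q receptor, had 0.287, Gpr77 0.271, and C1qbp, a C1q-binding protein of mitochondria, 0.498. In untreated cells these 5 were at 2.67 to 11.1 times input. The 4 higher genes are among 14 inhibitors, C4bp (2.11), Cd55 (3.08), Clu (2.44) and Serping1 (3.66), with 14 to 48 tags after LPS and at most 1.93 times input in either library. Calr, the chaperone calreticulin that also binds C1q, had the highest density of the list, 17.8 and 18.2 TPM per kb, a ratio of 1.02. C8g, a terminal component, had 10.5 and 7.98, but it overlaps Fbxw5, whose tags cannot be told apart from its own.

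The coding gene with the most similar pair of densities in the 2 Ser5 libraries, among 14213 of at least 1 kb with at least 50 Ser5 tags, was Rogdi for C1qa, Mtfmt for C1qb, Lrrc27 for C1qc, Mmp14 for C3, Abr for Cfb, Nudt1 for Cfp, Rdm1 for C3ar1 and A730015C16Rik for C5ar1. Their distances were 0.0177 to 0.0922 on the log2 scale. Between 20 genes, for C3, and 1216, for C1qb, lay within 0.5, so that over 2 libraries C3 and C1qc (45 genes) had few near matches and C1qb had many.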

How the data were processed

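ChIP-Seq of phosphorylated Ser5 Pol_II (antibody ab5131) and input DNA were analysed from the aligned tags and peak lists that the authors deposited. The reads had been trimmed, aligned to mm9 with Bowtie (unique matches) and given to MACS for each Ser5 library against input. The deposited score of a peak is minus 10 times the log10 of the MACS p-value. Tags spanned 45 (untreated), 30 (LPS) and 36 (input) bases, the reverse of the order that the supplementary methods give for the Ser5 libraries, and duplicates were kept. Shorter tags leave fewer unique positions. The tag files count from 0, which was tested on runs of N, and 1 was added.

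Tags were counted by their 5′ end over GENCODE M1 genes and given in TPM, tags per 1000000 tags on chromosomes 1 to 19 and X. Counts have exact Poisson intervals, and ratios exact intervals given the sum of both counts. With 1 library per condition no test was made. A gene was called at 2 times or more, up or down, with a minimum of 10 tags in the 2 Ser5 libraries together, 0 tags being set to 0.5 for this rule. Peaks counted with 1 bp of overlap. All 8 members were named, of the further complement genes those called and the 5 densest, and as similar genes the nearest in log2 density. The members and lists were chosen with earlier results of these data known. Promoters were those of at most 4 members past 2 times in the TSS window, up or down, that had a promoter entry. Alternatives were other scalings, windows, minimums, sizes and overlaps, 1 tag per position, tags moved 75 bp, and unique 30-base sequences. Computations ran in Python 3.11.15 (scipy 1.17.1, numpy 2.4.6, numba 0.67.0, pandas 2.3.3), and counting and intervals were tested on simulated data.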

Additional observations from a re-analysis of the deposited data

How the results depend on the processing

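No paired analysis was possible because each condition had 1 library and the labels carry no replicate numbers. Each LPS to untreated ratio of a member was recomputed under 6 alternatives per window, and all kept their side of 1 but the body of C3ar1 (0.989 to 1.15). The largest move was that of the Cfb TSS window, from 7.92 to 15.8 within 500 bp, and the others moved by at most 1.35 times. Cfb joined C3 over the body, making 2 members higher, under scaling to tags outside peaks, under scaling by the median coding gene and at 1.5 times. These scalings raised the median log2 ratio of coding genes by 0.106 and 0.195. The shares of coding bodies higher and lower went from 5.82% and 11.2% to 6.85% and 8.97%, and to 7.98% and 7.50%. At 1.5 times these shares were 12.0% and 25.2%.

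Counts of coding genes moved more. Over the body 1011 were higher, and 1765 with a minimum of 1 tag, 2078 at 1.5 times and 669 among genes that overlap no other. The 1955 lower became 4376 at 1.5 times and 1262 without overlap. In the TSS window the 703 higher became 383 with a minimum of 50 tags, 2985 with 1 tag, 1265 at 1.5 times and 442 without overlap, and the 1772 lower became 1178, 3682, 3704 and 1056. Of the further complement genes 7 were higher under the median scaling, 1 with a minimum of 50 tags and 8 at 1.5 times, against 4. At 1.5 times 10 were lower, against 5. The shares of coding genes higher under these 3 settings were 7.98%, 4.95% and 12.0%, and 25.2% were lower at 1.5 times. Nothing particular is read from these counts. The other 98 recomputed counts were within 1.5 times of those given. Depth limited C1qa, C1qb and C1qc, with 13 to 31 body tags after LPS. Scaling the C1q span to tags outside peaks, chosen after seeing the data, moved its LPS to input ratio from 0.964 to 1.97.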
